A study of Gossypium hirsutum with 6 samples.

Results

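The AP2-like factors of the euAP2 lineage that were predicted as targets of miR172 were described in the stem apex of upland cotton (Gossypium hirsutum). The group comprised 4 of the 156846 assembled transcripts, comp44002_c0_seq3, comp37715_c0_seq2, comp45321_c0_seq12 and comp40989_c0_seq4. They were chosen by their annotation as AP2-like factors and by their place among the predicted miRNA targets, and not by their expression. The files do not name genes, so the annotation could not be checked against a sequence of the transcripts.

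Stem apexes came from the wild type Ari971, called A9, from its dwarf mutant Ari1327, called A1, and from its tall-culm mutant Ari3697, called A3. All were seedlings raised in pots in a greenhouse and harvested at the stage of the fifth true leaf. Each line was represented by a single mRNA library, so differences between lines have no replicate check, and no p-value is given. The labels also mention pooling of RNA from the lines, whereas each library carries the genotype of 1 line and was taken as that line.

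AP2-like factors of the euAP2 lineage are plant transcription factors that bind DNA through AP2 domains. In Arabidopsis the lineage includes APETALA2, which acts in floral organ identity and in the shoot meristem, and the TOE and SMZ type factors, which delay flowering. miR172 pairs with a site in their mRNA and lowers their output both by cleaving the mRNA and by hindering its translation, so the mRNA level shows only a part of that control. In bulk tissue, a change in the number of cells that express a factor and a change of its RNA per cell cannot be told apart.

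Each of the 4 transcripts was paired with 8 mature miR172 names, and 9 names occurred in all. The paper reports miR172 pairing with comp45321_c0_seq12 among the interactions that it matched to a separate degradome, a survey of cleaved mRNA. The sequences below show how the miRNA faces its site in comp45321_c0_seq12, the member for which the study's supplementary tables spell out the pairing. They are written 5′ to 3′ with T in place of U, the capitals of the miRNAs mark the seed (bases 2 to 8), and the capitals of the site mark the bases that face the seed.
ath-miR172a: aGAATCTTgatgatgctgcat
ath-miR172c: aGAATCTTgatgatgctgcag
gma-miR172k: tGAATCTTgatgatgctgcat
zma-miR172a: aGAATCTTgatgatgctgca
site in comp45321_c0_seq12: ctgcagcatcatcAGGATTCt
The 4 miRNAs shared 1 seed. Counted from the 5′ end of ath-miR172a, the differences were T21G in ath-miR172c and A1T in gma-miR172k, and zma-miR172a was 20 bases long. All 4 faced the site with a G-U wobble at position 7, inside the seed. Beyond this wobble, ath-miR172c and zma-miR172a paired at every base, ath-miR172a had a mismatch at position 21, and gma-miR172k had mismatches at positions 1 and 21.

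The AP2-like transcripts were expressed at a modest level, between 2.14 and 6.79 RPKM (reads scaled to the length of the transcript and to the size of the library). Over all transcripts the median RPKM lay between 1.55 and 1.60 in the libraries, and the 4 transcripts stood between the percentiles 59.3 and 85.2 of their libraries. Summed over the 4 transcripts, the level was 15.8 RPKM in A1, 14.65 RPKM in A3 and 15.34 RPKM in A9. The total thus varied little, with a log2 ratio of 0.04 for A1 over A9, -0.07 for A3 over A9 and 0.11 for A1 over A3. By value alone, comp44002_c0_seq3 and comp37715_c0_seq2 were lowest in A9, and comp45321_c0_seq12 and comp40989_c0_seq4 were highest there. Among their ratios to A9, only those of A3 in comp45321_c0_seq12 and comp40989_c0_seq4 had main intervals, given below, that left out 0.

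Read numbers were not part of the values analysed. For transcripts of known length with values low enough to tell, the product of RPKM and length was mostly a multiple of 1 constant per library. At the level of the AP2-like transcripts the multiples were mostly further than 0.1 from a whole number, and they were rounded to inferred reads, 69 to 146 per transcript and library. All 95% intervals given were computed by exact methods from these inferred reads, cover counting error only and compare libraries, not lines. They treat the inferred reads as independent counts of 1 transcript. Reads shared between transcripts of like sequence would break this, and the intervals do not cover it. Whether 1 multiple is 1 read was not settled. With 0.5 times the constant the numbers double and the intervals narrow. The depth would then exceed the raw reads that the study reports for each library. The study sequenced both ends of its fragments. If 1 multiple is 1 end, the ends of a fragment are not independent and the intervals should be wider than given. Intervals that end near 0 could then include it. This wider case was not computed, so the alternative intervals given below show only the narrower one.

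comp37715_c0_seq2 was the most abundant of the 4 in every library, at 6.76 RPKM (95% interval 5.55 to 8.12) in A1, 6.79 RPKM (5.60 to 8.23) in A3 and 5.29 RPKM (4.30 to 6.5) in A9. Both mutants were 1.28 times the wild type, with a log2 ratio of 0.35 (-0.07 to 0.75) for A1 over A9 and 0.36 (-0.05 to 0.77) for A3 over A9. Both intervals included 0. Both left it out with 0.5 times the constant, a setting whose depth would exceed the raw reads. The mutants were nearly equal to each other, and the log2 ratio of A1 over A3 was -0.01 (-0.41 to 0.38). A difference inside that interval was not detectable at this depth.

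comp44002_c0_seq3 was at 2.74 RPKM (2.19 to 3.38) in A1, 3.29 RPKM (2.67 to 3.98) in A3 and 2.65 RPKM (2.12 to 3.24) in A9. The tall-culm mutant had the highest value, 1.24 times the wild type, and the dwarf mutant was close to the wild type. The log2 ratio was 0.05 (-0.39 to 0.50) for A1 over A9, 0.31 (-0.11 to 0.74) for A3 over A9 and -0.26 (-0.69 to 0.17) for A1 over A3. The depth did not allow these libraries to be told apart. With 0.5 times the constant, the interval of A3 over A9 ran from 0.02 to 0.61 and left out 0.

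comp45321_c0_seq12, the transcript whose site is shown above, was at 2.95 RPKM (2.43 to 3.58) in A1, 2.14 RPKM (1.67 to 2.67) in A3 and 3.77 RPKM (3.17 to 4.42) in A9. The tall-culm mutant was the lowest, and its interval overlapped that of A1 and not that of A9. The wild type had 1.76 times the level of A3, a log2 ratio of A3 over A9 of -0.82 (-1.24 to -0.41), and 1.28 times the level of A1, a log2 ratio of A1 over A9 of -0.35 (-0.72 to 0.03). A1 was 1.38 times A3, with a log2 ratio of 0.46 (0.03 to 0.92). The interval of A3 over A9 left out 0, and that of A1 over A3 only just did. That of A1 over A9 included it, and with 0.5 times the constant it ran from -0.62 to -0.09 and left it out.

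comp40989_c0_seq4 had the same order of the lines, at 3.35 RPKM (2.73 to 4.09) in A1, 2.43 RPKM (1.89 to 3.08) in A3 and 3.63 RPKM (3.0 to 4.36) in A9. The wild type had 1.49 times the level of A3, with a log2 ratio of A3 over A9 of -0.58 (-1.03 to -0.13). A1 was 1.38 times A3, with a log2 ratio of 0.46 (0.01 to 0.93), an interval that only just left out 0. A1 and A9 were not distinguishable at this depth, with a log2 ratio of A1 over A9 of -0.12 (-0.52 to 0.29).

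**Figure D1:**
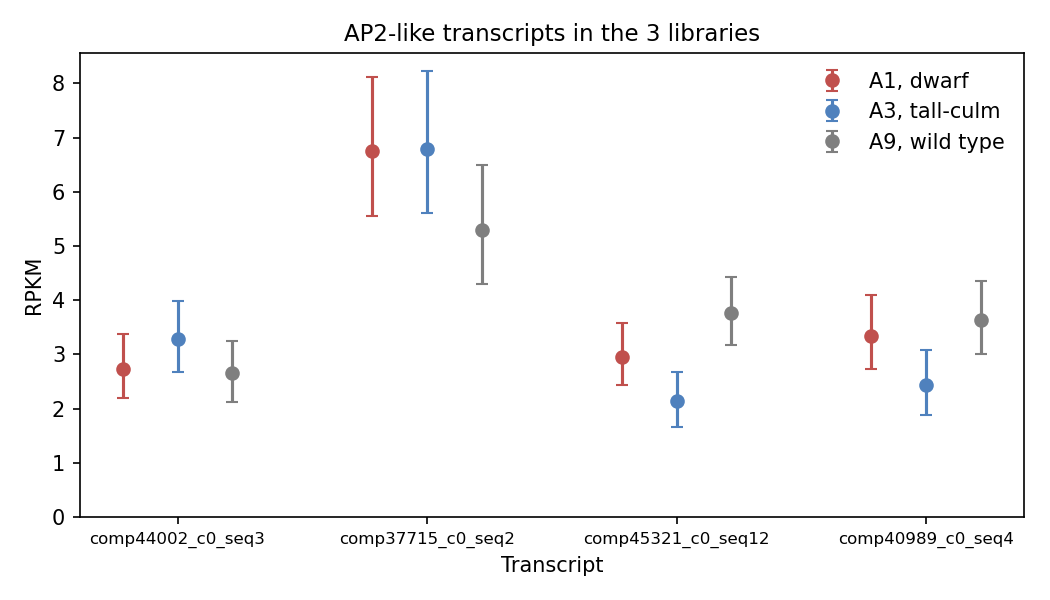
RPKM of the 4 AP2-like transcripts (vertical axis) in the libraries of A1, A3 and A9; points are the single library values and bars the exact 95% counting intervals. comp37715_c0_seq2 lies highest in every library, and comp45321_c0_seq12 and comp40989_c0_seq4 are lowest in A3, at 2.14 and 2.43 RPKM.

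By value, the direct comparison of the dwarf with the tall-culm mutant split the group. A1 was above A3 in comp45321_c0_seq12 and comp40989_c0_seq4, with intervals that began at 0.03 and 0.01. These could include 0 if 1 multiple is 1 end of a fragment. A1 was below A3 in comp44002_c0_seq3 with an interval that included 0, and almost level with it in comp37715_c0_seq2. A transcript was counted as changed when its log2 ratio was 1 or more, or -1 or less. In A1 over A9, 0 of 4 AP2-like transcripts passed it, beside 21.1% of all transcripts and 14.2% of the 86600 transcripts with a mean of 1 to 10 RPKM. In A3 over A9, 0 of 4 passed, beside 19.5% of all transcripts and 12.6% in that range. In A1 over A3, 0 of 4 passed, beside 19.3% and 12.0%. Beside shares of this size, a count of 0 of 4 is not a result about AP2-like factors.

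Among transcripts with a mean of 1 to 10 RPKM, the median log2 ratio was -0.01 for A1 over A9, 0.02 for A3 over A9 and -0.03 for A1 over A3. In A3 over A9, 17.3% of them had a ratio at least as large in size as comp45321_c0_seq12, and 26.3% one at least as large as comp40989_c0_seq4. In A1 over A3 the share was 31.5% for each of these. The differences of the AP2-like transcripts were thus of a size common in this range of RPKM. The range was not matched for length or read number, so these shares do not compare transcripts of like counting error.

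Within a library, most neighbours in the order below the top could not be told apart. comp37715_c0_seq2 exceeded the next transcript by a log2 ratio of 1.01 (0.60 to 1.41) in A1, 1.05 (0.65 to 1.46) in A3 and 0.49 (0.11 to 0.88) in A9. In A1, the neighbours below it, comp40989_c0_seq4 over comp45321_c0_seq12 and comp45321_c0_seq12 over comp44002_c0_seq3, had intervals that included 0. The same held in A3 for comp44002_c0_seq3 over comp40989_c0_seq4 and for comp40989_c0_seq4 over comp45321_c0_seq12. In A9, comp45321_c0_seq12 and comp40989_c0_seq4 were not distinguishable, and comp40989_c0_seq4 exceeded comp44002_c0_seq3 by 0.45 (0.05 to 0.87) on the log2 scale.

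The assembler placed each AP2-like transcript in a component, a set of transcripts that share sequence and can be isoforms, alleles or homoeologous copies of a gene in this allotetraploid. The 4 components held 67 transcripts, of which 66 reached 1 RPKM in at least 1 library. Transcripts of a component can share reads, and how the authors assigned such reads is not given in the sources used here. The transcripts of a component are therefore not independent of each other, a read may enter a component sum repeatedly, and no intervals are given for the sums. The intervals of the listed transcripts above have the same limit.

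comp44002_c0 held 30 transcripts, and its summed level was 127.72 RPKM in A1, 140.62 RPKM in A3 and 110.98 RPKM in A9. Both mutants were above the wild type, A1 by 0.20 and A3 by 0.34 on the log2 scale. comp44002_c0_seq3 was a minor transcript, ranked 18 of 30 by its mean, and made up 2.15% of the sum in A1, 2.34% in A3 and 2.39% in A9, where equal shares would be 3.33%. The other 29 transcripts had medians of 3.3 RPKM in A1, 3.84 RPKM in A3 and 3.02 RPKM in A9.

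In comp44002_c0, 27 of 30 transcripts were higher in A1 than in A9 and 28 of 30 higher in A3 than in A9, with median log2 ratios of 0.37 and 0.36. Both mutants were above A9 in 26 of 30, against 36.1% of transcripts with a mean of 1 to 10 RPKM. Between the mutants, 13 were higher in A1 and 17 in A3. Its most abundant transcript went the other way: comp44002_c0_seq5 was at 16.0 RPKM in A1, 19.22 RPKM in A3 and 22.94 RPKM in A9, and its share of the sum was 12.5%, 13.7% and 20.7%. comp44002_c0_seq24, next in abundance, was at 17.12 RPKM in A1, 18.24 RPKM in A3 and 11.13 RPKM in A9, and its share was 13.4% in A1 and 13.0% in A3 and smaller in A9. The wild type thus had comp44002_c0_seq5 as its leading form, whereas both mutants held these forms at similar levels. comp44002_c0_seq7 was the transcript of the component past the threshold, at 1.91 RPKM in A1, 4.39 RPKM in A3 and 1.49 RPKM in A9, with a log2 ratio of 1.56 for A3 over A9 and -1.20 for A1 over A3.

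comp37715_c0 held 2 transcripts, and comp37715_c0_seq2 was the larger part of it in every library. The sum was 6.76 RPKM in A1, 8.44 RPKM in A3 and 6.11 RPKM in A9, and comp37715_c0_seq2 made up 100% of it in A1, 80.5% of it in A3 and 86.6% of it in A9. The rest was comp37715_c0_seq1, listed at 0 RPKM in A1, 1.65 RPKM in A3 and 0.82 RPKM in A9. The length of this transcript is not known here, so the number of reads behind these low values is not known. Through it, the sum differed more between the mutants than the listed transcript did, with a log2 ratio of A1 over A3 of -0.32 against -0.01.

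comp45321_c0 held 27 transcripts and had the largest difference from the wild type of the 4 component sums. The sum was 66.71 RPKM in A1, 70.0 RPKM in A3 and 101.44 RPKM in A9, so that the wild type had 1.52 times the level of A1 and 1.45 times that of A3. The log2 ratio was -0.60 for A1 over A9 and -0.54 for A3 over A9. In A1, all 27 transcripts were below A9, and in A3, 26 of 27 were, the exception being comp45321_c0_seq2 at no more than 0.26 RPKM. Both mutants were below A9 in 26 of 27, against 35.2% of transcripts with a mean of 1 to 10 RPKM. Past the threshold were 4 of 27 in A1 over A9 and 2 of 27 in A3 over A9, all lower in the mutant, beside 9.69% and 9.13% of all transcripts lower by as much. The most abundant, comp45321_c0_seq26, was at 6.73 RPKM in A1, 7.52 RPKM in A3 and 13.43 RPKM in A9.

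The listed transcript of comp45321_c0 did not follow its component between the mutants. The sums of A1 and A3 were nearly equal, with a log2 ratio of A1 over A3 of -0.07, while that of comp45321_c0_seq12 was 0.46. It ranked 14 of 27 by its mean. It made up 4.42% of the sum in A1, 3.06% of it in A3 and 3.72% of it in A9. Of the 27 transcripts, 17 were lower in A1 than in A3 and 10 higher. The 10 fell into 5 with a log2 ratio of 0.46 to 0.66, comp45321_c0_seq12 among them, and 5 with one of 0.04 to 0.16, a division made after the values were seen. The other transcripts with the larger ratio were comp45321_c0_seq1, comp45321_c0_seq13, comp45321_c0_seq19 and comp45321_c0_seq24. They were at 2.92, 3.38, 2.89 and 1.75 RPKM in A1 and 2.09, 2.31, 1.83 and 1.19 RPKM in A3. All can share reads with comp45321_c0_seq12, and all but comp45321_c0_seq24, which lay well below it, ran close to its level.

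comp40989_c0 held 8 transcripts, all of which had the order of comp40989_c0_seq4, with A9 highest and A3 lowest. That order occurred in 14.2% of transcripts with a mean of 1 to 10 RPKM and in 10 of the 27 transcripts of comp45321_c0. The sum was 21.21 RPKM in A1, 16.73 RPKM in A3 and 23.63 RPKM in A9, with a log2 ratio of -0.16 for A1 over A9, -0.50 for A3 over A9 and 0.34 for A1 over A3. comp40989_c0_seq4 made up 15.8% of it in A1, 14.5% of it in A3 and 15.4% of it in A9, above the 12.5% of equal shares, and it ranked 2 of 8. The most abundant other transcript, comp40989_c0_seq3, was at 3.56 RPKM in A1, 2.66 RPKM in A3 and 3.88 RPKM in A9. The 4 transcripts with a mean of at least 2.5 RPKM had log2 ratios of A3 over A9 from -0.61 to -0.54, and the 4 below it from -0.45 to -0.35. This cut was not planned and was used for this component only, and transcripts on the same side of it can share reads. In each of the 3 comparisons 0 of the 8 passed the threshold, beside 21.1%, 19.5% and 19.3% of all transcripts, which for 8 transcripts that can share reads is not a result about the component.

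**Figure D2:**
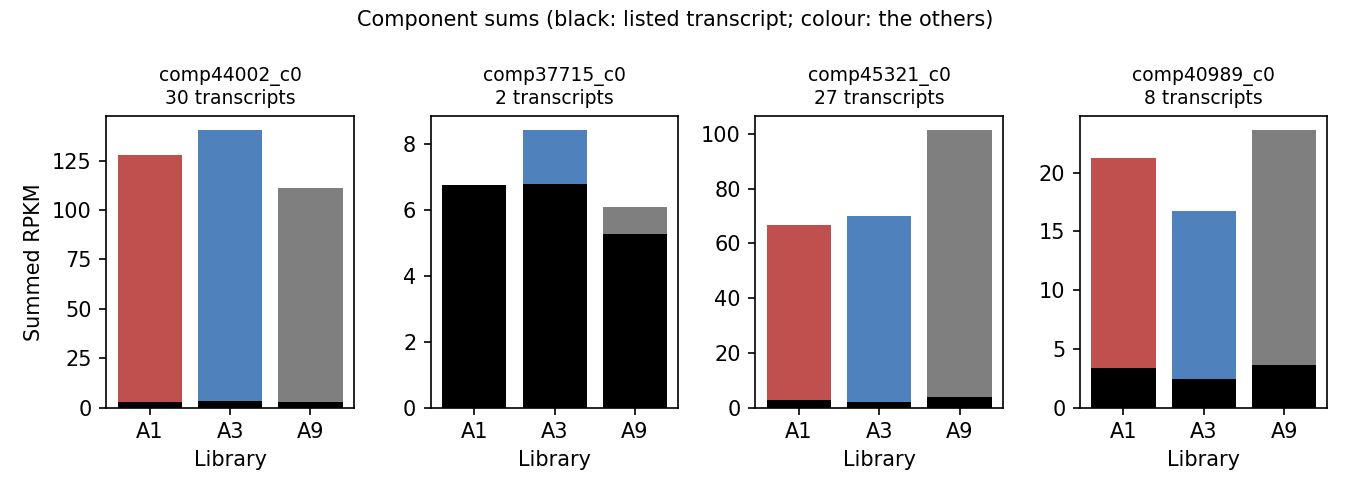
Summed RPKM of each component (vertical axis, a scale of its own in each panel) in A1, A3 and A9; black is the listed AP2-like transcript and colour the sum of the others. The listed transcript is a thin layer in comp44002_c0 and comp45321_c0 and the larger part of comp37715_c0.

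**Figure D3:**
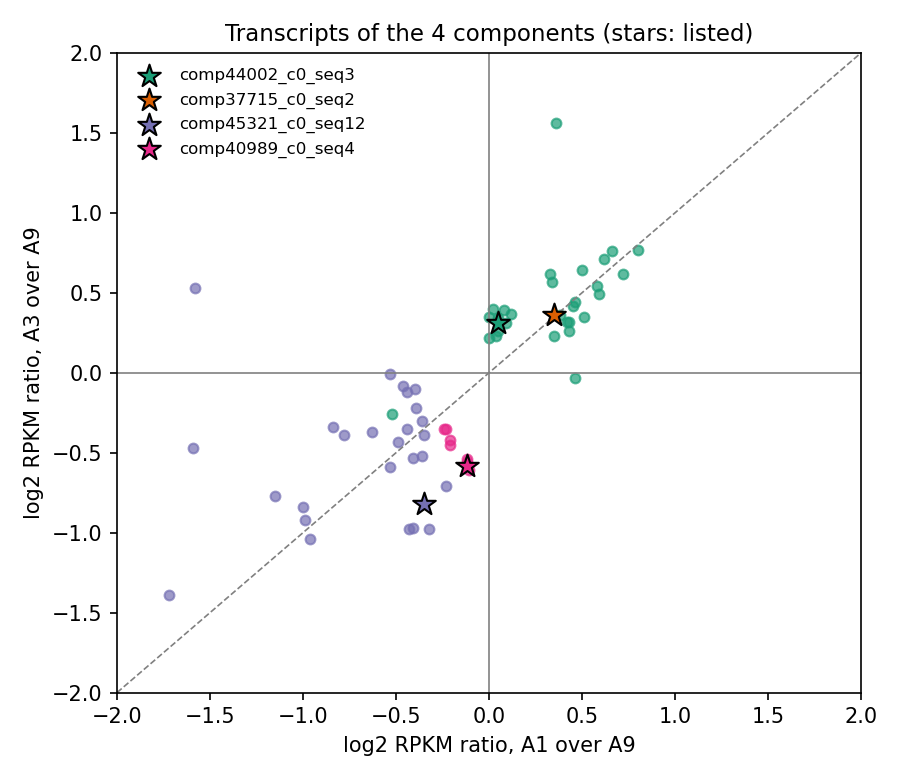
Log2 RPKM ratio of A1 over A9 (horizontal) and A3 over A9 (vertical) for the transcripts of the 4 components, coloured by component, with the listed ones as stars and a dashed line of equal ratios; 1 transcript listed at 0 in A1 lies outside the axes. Both axes share the A9 library, and comp44002_c0 lies mostly above 0 on both axes and comp45321_c0 and comp40989_c0 below.

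Over all 67 transcripts, the sum was 222.4 RPKM in A1, 235.79 RPKM in A3 and 242.16 RPKM in A9. The higher sums of comp44002_c0 and comp37715_c0 in the mutants stood against lower sums of comp45321_c0 and comp40989_c0, and the log2 ratio of the total was -0.12 for A1 over A9 and -0.04 for A3 over A9.

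**Figure D4:**
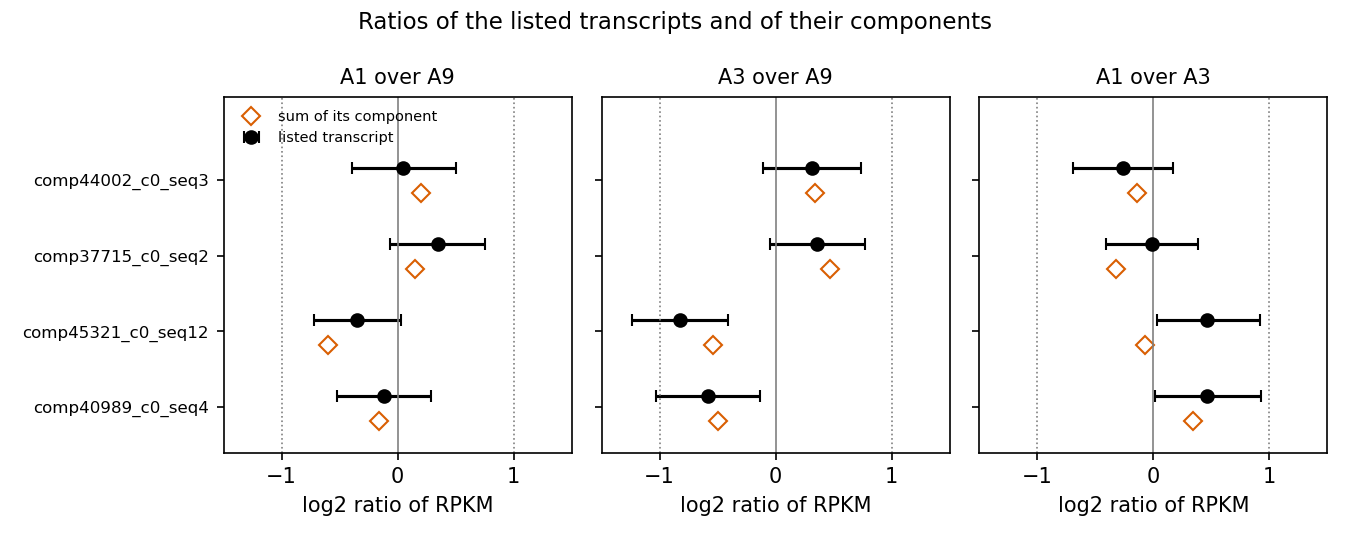
Log2 RPKM ratios of the listed transcripts (black, with exact 95% counting intervals) and of the sums of their components (open diamonds, no interval) in the 3 comparisons; dotted lines mark the threshold of 1. In A1 over A3 the sum of comp45321_c0 lies at -0.07 and its listed transcript at 0.46.

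A further 32 transcripts were predicted as targets of a miR172 name. Their median log2 ratio was -0.04 for A1 over A9, -0.11 for A3 over A9 and -0.10 for A1 over A3, and they varied in both directions. In A1 over A9, 1 was higher and 4 lower past the threshold, which is 15.6% of the 32, beside 21.1% of all transcripts. In A3 over A9, 2 were higher and 4 lower, 18.8% beside 19.5%. In A1 over A3, 4 were higher and 5 lower, 28.1% beside 19.3%, and 4 of these 9 had a value of 0. Of the 25 with a mean of at least 1 RPKM, 1, 4 and 4 passed in these comparisons, which is 4.0%, 16.0% and 16.0%. Among all transcripts with a mean of 1 to 10 RPKM, a narrower range, the shares were 14.2%, 12.6% and 12.0%. The AP2-like transcripts had medians of -0.03, -0.13 and 0.23. They lay within the ranges of the 25, which were -1.69 to 0.72, -1.62 to 1.27 and -1.41 to 1.25. Ranges this wide do not show a likeness.

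Of the 32, 9 carried a listed function. In A1 over A9, 0 of these passed the threshold. In A3 over A9 and in A1 over A3, 1 passed, which is 11.1% beside 19.5% and 19.3% of all transcripts. The transcript that passed was comp63776_c0_seq1, a polyadenylate-binding protein, of the family that coats the poly(A) tail of mRNA. It was at 5.33 RPKM in A1, 2.61 RPKM in A3 and 8.0 RPKM in A9. Its log2 ratio was -1.62 for A3 over A9 and 1.03 for A1 over A3, and its order of the lines was that of comp45321_c0_seq12 and comp40989_c0_seq4. Another transcript of that function, comp40357_c0_seq3, was at 13.39, 14.68 and 13.11 RPKM in A1, A3 and A9. comp45579_c0_seq3, annotated as the chromatin regulator ATRX, was at 3.64 RPKM in A1, 4.03 RPKM in A3 and 5.08 RPKM in A9. comp39936_c0_seq2, a cytochrome P450 annotated as a beta-ring hydroxylase, was at 12.78 RPKM in A1, 13.55 RPKM in A3 and 15.38 RPKM in A9. ATRX and the cytochrome P450 were highest in the wild type, without reaching the threshold.

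comp40487_c0_seq1, a cytoplasmic aspartate aminotransferase, was at 19.78 RPKM in A1, 17.57 RPKM in A3 and 12.95 RPKM in A9, and comp36777_c0_seq2, the exosome component RRP45, at 8.62, 8.20 and 6.73 RPKM. Both were lowest in the wild type. comp43308_c0_seq3, elongator complex protein 3, was level at 10.76, 10.74 and 10.87 RPKM in A1, A3 and A9. comp40715_c0_seq1, cycloartenol synthase of sterol synthesis, was at 34.38, 42.11 and 32.65 RPKM, and comp40469_c0_seq1, periodic tryptophan protein 1, at 12.29, 12.93 and 10.88 RPKM. Both of the latter were paired with the 5p strand of the miR172 hairpin and not with the strand whose sequences are shown above, which held for 6 of the 32.

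Among the targets without a listed function, those past the threshold with at least 1 RPKM in either library fell into several patterns. comp118158_c0_seq1 was highest in A3, at 3.3 RPKM against 1.24 RPKM in A1 and 1.37 RPKM in A9, as was comp35290_c0_seq1, at 4.25 RPKM against 2.91 and 1.82 RPKM. comp21394_c0_seq1 was also highest there, at 1.30 RPKM against 0.64 and 0.73 RPKM. comp17855_c0_seq1 was lowest in A3, at 0.94 RPKM against 2.24 RPKM in A1 and 2.66 RPKM in A9. comp7658_c0_seq1, at 0.61, 1.26 and 1.97 RPKM in A1, A3 and A9, and comp6235_c0_seq1, at 0.52, 0.84 and 1.63 RPKM, were lowest in A1. The 4 that were listed at 0 in a mutant had low values elsewhere: comp258138_c0_seq1 and comp400392_c0_seq1 were at 0 in A1 and at 1.48 and 1.03 RPKM in A9, and comp188420_c0_seq1 and comp314879_c0_seq1 were at 0 in A3 and at 1.14 and 1.22 RPKM in A1.

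**Figure D5:**
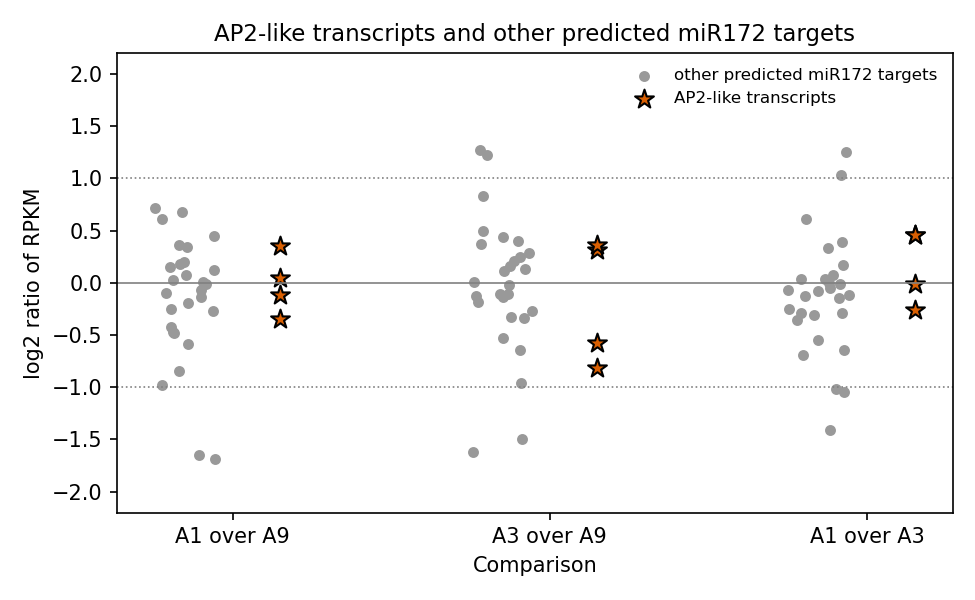
Log2 RPKM ratios (vertical) of the 4 AP2-like transcripts (stars) and of 28 other predicted miR172 targets (grey points, spread sideways for legibility) in the 3 comparisons; the 4 targets with a value of 0 are not drawn and dotted lines mark the threshold of 1. The stars lie between -0.82 and 0.46, inside the range of the grey points.

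The EREBP-like factor among the predicted targets, comp37594_c0_seq3, belongs to another branch of the AP2/ERF superfamily and was not a predicted miR172 target. It was more abundant, at 30.4 RPKM in A1, 26.35 RPKM in A3 and 27.52 RPKM in A9, with a log2 ratio of 0.14 for A1 over A9, -0.06 for A3 over A9 and 0.21 for A1 over A3. It did not share the low value in A3 on the scale of comp45321_c0_seq12 and comp40989_c0_seq4.

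Profiles were compared by the Euclidean distance of the centred log2 RPKM over the 3 libraries, as a description over 3 points. comp44002_c0_seq3 and comp37715_c0_seq2 lay 0.23 apart, comp45321_c0_seq12 and comp40989_c0_seq4 lay 0.19 apart, and the other pairs of members lay 0.66 to 0.84 apart. The members were compared with 130 transcripts that had a listed function and at least 1 RPKM in all libraries. Functions were listed for predicted miRNA targets only, so these are not annotated transcripts in general. The nearest to comp44002_c0_seq3 were comp46685_c0_seq6, an endoribonuclease Dicer, at 0.027 and cycloartenol synthase at 0.039. Those nearest to comp37715_c0_seq2 were comp29464_c0_seq1, the chaperone GrpE, at 0.056 and RRP45 at 0.063. For comp45321_c0_seq12 they were comp43773_c0_seq1, a phosphoadenosine-phosphosulfate synthase, at 0.11 and comp40610_c0_seq1, arogenate dehydrogenase, at 0.21. For comp40989_c0_seq4 they were the same synthase at 0.16 and comp31634_c0_seq1, a phosphatidylinositol phosphate kinase, at 0.18. With 3 libraries many transcripts lie near a given profile. Of 84097 transcripts, 3047 (3.62%) lay within 0.1 of comp44002_c0_seq3 and 3171 (3.77%) of comp37715_c0_seq2. Fewer lay as near to comp45321_c0_seq12, 388 (0.461%), and to comp40989_c0_seq4, 685 (0.815%). The neighbours named for comp45321_c0_seq12 and comp40989_c0_seq4 lay further away than 0.1.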

How the data were processed

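Messenger RNA of 3 cotton lines was analysed, 1 library per line, without the small RNA libraries. The authors trimmed and filtered the reads, built a joint assembly of all mRNA libraries with Trinity and deposited for each transcript its RPKM, to 2 decimals. The read mapper is not given in the sources used here. Functions, miR172 pairings, sequences and lengths came from the supplementary tables of the study. Members and lists were chosen with earlier results of these data known.

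Log2 ratios were computed with 0 replaced by 0.001 and counted as changed at 1 or more in size. A constant per library (72.01 in A1, 74.14 in A3, 66.32 in A9) was searched over 259 transcripts with a known length. Of the 71, 68 and 68 low values, 88.7%, 94.1% and 89.7% lay within 0.1 of a whole multiple, and with 0.5 times the constant 97.7%, 100.0% and 97.7% of 43, 41 and 43 values. If 1 multiple is 1 read, the depths were 13887000, 13488000 and 15078400 reads, below the filtered reads that the study reports for each library. Ratio intervals were exact conditional binomial intervals at 95%, level intervals exact Poisson ones. Reads were not recovered for all transcripts, so no count test was run.

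Named transcripts were the 4 members, the most abundant other transcripts of their components, other miR172 targets with a function or past the threshold at 1 RPKM or more, the EREBP-like factor and the 2 nearest profiles per member; the rule also admits any component transcript of at least 1 RPKM. comp45321_c0_seq2, below 1 RPKM, was named after its values were seen. Alternatives were added values of 0.1 or 1, median ratio or upper quartile scaling, minimum values and a threshold of 2. Scripts were tested on simulated data. Python 3.11.15 was used with scipy 1.17.1, pandas 2.3.3, numpy 2.4.6 and, for figures, matplotlib 3.10.9.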

Additional observations from a re-analysis of the deposited data

Results flagged for a closer look

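Among the 67 transcripts of the 4 components and the 32 other predicted miR172 targets, 2 lay past the threshold in both mutants, in opposite directions from the wild type. The share of all transcripts with this pattern was not computed, so the count is not a result about these lists. The difference was not tested, since there is 1 library per line. comp37715_c0_seq1, the other transcript of the comp37715_c0 component, was listed at 0 RPKM in A1, 1.65 RPKM in A3 and 0.82 RPKM in A9. comp314879_c0_seq1, a predicted miR172 target without a listed function, was at 1.22 RPKM in A1, listed at 0 RPKM in A3 and at 0.45 RPKM in A9. The length of comp37715_c0_seq1 is not known here, and all values of both transcripts are low.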

How the results depend on the processing

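No paired analysis was possible because each line has 1 library. With 1 added to every RPKM, the transcripts past the threshold numbered 10599 in A1 over A9, 8759 in A3 over A9 and 8445 in A1 over A3, in place of 33151, 30656 and 30245, and the other predicted miR172 targets 2, 1 and 2, in place of 5, 6 and 9. At a threshold of 2 they numbered 15810, 14308 and 14421, and the targets 2, 2 and 4. With a minimum of 1 RPKM in either library at the threshold of 1, they fell to 23233, 20806 and 20424. The targets then numbered 5, 4 and 7. Added values and scaling left all ratios of the AP2-like transcripts within their counting intervals; the ratio of comp37715_c0_seq2 in A1 over A3 turned from -0.01 to 0.02 under median ratio scaling, and no other ratio changed sign. Leaving out the most abundant other transcript of a component, an alternative chosen after seeing the data, gave summed log2 ratios of 0.34 for A1 over A9 and 0.46 for A3 over A9 in comp44002_c0, and of 0.35, 0.36 and -0.01 in comp37715_c0, where only the listed transcript is then left. The other summed ratios moved by at most 0.1. The minimum of 1 RPKM in any library, the alternative run on the shares, left out comp45321_c0_seq2, and the share of comp45321_c0_seq12 was then 4.43% in A1 and 3.07% in A3. A share by length was not run. The median ratio to A9 was 0.987 in A1 and 1.01 in A3. Without replicates, variation between plants of a line was not measured.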
